A study of Petromyzon marinus with 12 samples.

Results

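The 14 chromosomes numbered 72 to 85 of the sea lamprey (Petromyzon marinus) annotation were examined gene by gene in whole embryos. Members were all gene and pseudogene models placed by the deposited annotation on a chromosome numbered 72 or above, unlocalized sequences of those chromosomes included. The annotation held 1605 such models, and 1431 of them were among the 22407 genes of the count table. They comprised 1339 models of mRNA type, 77 of lncRNA type and 15 of other types. A gene name was given for 802 of them and none for 629. Of the 1431 members, 928 lay on 107 unlocalized sequences, pieces assigned to a chromosome without a position on it.

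RNA was sequenced from 12 libraries in 6 groups of 2 pools, each of about 100 embryos kept at 18 °C. At each of day 2 and day 3 of development there were wildtype embryos, embryos with a knockout of KMT1 and embryos with a knockout of KMT5A. Knockout embryos had been injected with Cas9 protein, guide RNAs and a fluorescent dextran and screened at 24 hours, and the labels give neither whether wildtype embryos were injected nor what share of cells was edited. Nothing in the labels says that the pools of a group came from different parents, so p-values measure only the spread between these pools.

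Sea lampreys remove part of their genome from somatic cells during early embryogenesis and keep it in the germ line. Some lamprey chromosomes are present in the germ line alone, and their genes cannot be transcribed in somatic cells after elimination. KMT1 is a name for methyltransferases that act on lysine 9 of histone H3, a mark of silent chromatin, and KMT5A adds a single methyl group to lysine 20 of histone H4. Which of chromosomes 72 to 85 are lost from somatic cells is not given in the sources used here, so each chromosome is described separately.

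Total counts per library were 61886305 to 89061394. Levels are given in CPM, the usual scale of counts relative to the library total, here a total adjusted by the TMM method. Levels and counts are not adjusted for gene length, except where given per kilobase of exon. The labels do not say which gene model was targeted as KMT1. SUV39H2 carries a name of the KMT1 enzymes, and levels of other genes with such names are not given here. SUV39H2 had mean levels of 119 CPM in wildtype and 148 CPM in KMT1 knockouts at day 2, and of 53.8 and 34.7 CPM at day 3. KMT5A had mean levels of 381 and 203 CPM in wildtype at day 2 and day 3, against 375 and 79.6 CPM in its own knockout. The part of each transcript that the guides target is not given in the labels. In KMT1 knockout replicate 2 and KMT5A knockout replicate 1 at day 3, 2 abundant models on unplaced sequences, 1 of them annotated as ribosomal RNA and the other as mRNA, took 6.99% and 15.3% of counts against 0.411% to 0.599% in the other 10 libraries. Counts of calls at day 3 are given with and without them. Of 15 germ cell markers, 8 were found among the counted genes and 7 were above 0. NANOS2 was listed at 0 in all libraries. Of the other lists, 3 of 5 neural plate, 4 of 6 mesoderm and 4 of 5 endoderm markers were found.

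Transcripts of 13 of the 14 chromosomes were plainly present at both days, and chromosome 81 stood apart with hardly any. The summed level of chromosome 81, as the mean over the 12 libraries, was 15.6 CPM from 62 genes. The other 13 chromosomes had summed levels of 720 CPM for chromosome 82 to 9191 CPM for chromosome 74. Per kilobase of exon, the summed level was 0.117 CPM on chromosome 81, 4.02 CPM on chromosome 83, the next lowest, and 24.6 CPM on chromosome 72, the highest. Chromosomes 1 to 71 held 18862 counted genes and ranged from 3.19 to 29.3 CPM per kilobase of exon, with a median of 11.1. Apart from chromosome 81, the levels per kilobase thus lay within the range of chromosomes 1 to 71.

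The share of genes listed at 0 in all 12 libraries followed the same division. It was 64.5% on chromosome 81, which is 40 of 62 genes, and 9.09% on chromosome 74 to 32.1% on chromosome 72 among the other 13. Over chromosomes 1 to 71 it was 25.3% in all, and 6.45% to 59.5% by chromosome. In total 328 members were listed at 0 in all 12 libraries and 753 were above 0 in all 12. A 0 in this table can be a failed estimate, so such genes are described as listed at 0. The filter on low counts left 1056 members for testing, or 73.8%, against 69.7% of the whole table, and 375 members were not tested. At the edge of the rule, chromosome 71 had a summed level of 1085 ± 5.07 CPM (SD, n = 2) in wildtype at day 2 and chromosome 72 one of 5702 ± 115 CPM.

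**Figure D1:**
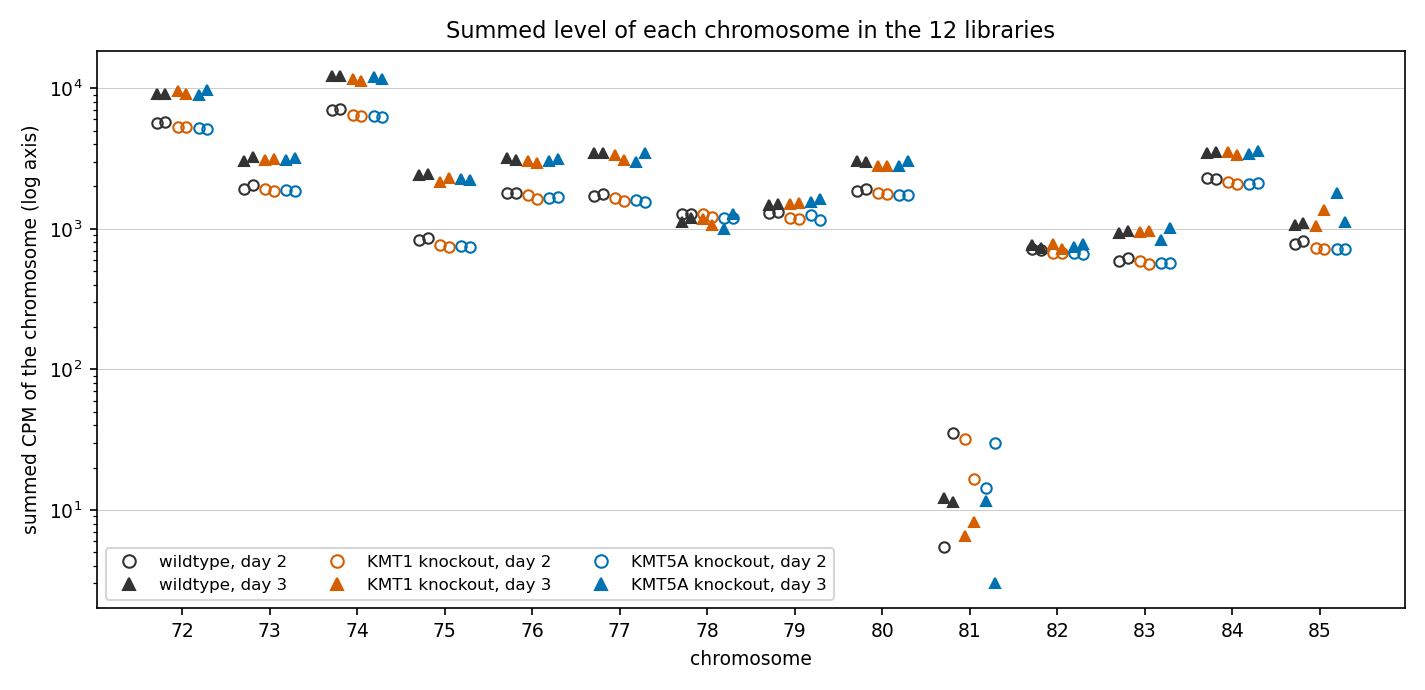
Summed level of the counted genes of each chromosome from 72 to 85 in every library, in CPM on a log axis, by day and genotype. Chromosome 81 lies below 50 CPM in all 12 libraries and every other chromosome above 500 CPM.

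Chromosome 81 carried 62 counted genes, of which 42 had a name, and 22 were above 0 in at least 1 library. Only MAD2L1BP (PM25150, positions 161864 to 166042), a gene named for a protein that binds the spindle checkpoint factor MAD2, and PM03719, a model without a name, were above 0 in all 12. Total counts on the chromosome were 496 and 3555 in wildtype, 3069 and 1630 in KMT1 knockouts and 1471 and 2568 in KMT5A knockouts at day 2. At day 3 they were 902 and 700, 454 and 451, and 511 and 175 in the same order. The 2 wildtype pools of day 2 held the lowest and the highest total of that day, so the spread within a group was as wide as any difference between genotypes.

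That spread came from 2 models named CDC20, an activator of the anaphase-promoting complex that drives cells out of mitosis. PM03723 had 0 and 2337 counts in wildtype, 1697 and 415 in KMT1 knockouts and 863 and 1663 in KMT5A knockouts at day 2. At day 3 its counts were 505 and 338, 0 and 100, and 258 and 0. PM00614 was at 0 in 5 of the 12 libraries and otherwise at 143 to 748 counts. No other counted model carried the exact name CDC20. Models without a name, or named with an added -domain or -like, were not searched, so other copies could not be seen. How reads were divided between the 2 models is not stated. Without both models, 317 to 825 counts were left on the chromosome at day 2 and 169 to 454 at day 3. Replicates of 1 group thus ranged from 0 to 2337 counts, and neither model passed edgeR's test in any of the 9 comparisons.

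The remaining transcripts of the chromosome were few. MAD2L1BP had 59 to 263 counts at day 2 and 15 to 149 at day 3, while the model of the same name on chromosome 31, PM14866, had at least 2592 counts in every library. HYKK (PM25159), named for hydroxylysine kinase, had 27 to 77 counts in each of the 6 day 2 libraries and was listed at 0 in each of the 6 day 3 libraries. NAIP (PM03725), named for a sensor of bacterial proteins, had 33 to 51 counts at day 2 and 0 to 8 at day 3. PM00632 had 11 to 23 counts at day 2 and 0 to 6 at day 3. For these 3 genes no day 3 library reached the counts of any day 2 library. HYKK passed edgeR's test between days in all 3 genotypes and NAIP in KMT5A knockouts, both with a group at 0 and so without a fold change. The opposite order was seen for PM25156, above 0 in 1 of 6 libraries at day 2 and in 5 of 6 at day 3, with 32 to 45 counts in those 5. ZNF441 (PM25178) was above 0 in 2 of 6 libraries at day 2 and in 5 of 6 at day 3. PM25179 was above 0 in 3 of 6 and then in 6 of 6. No count of either was above 26.

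**Figure D2:**
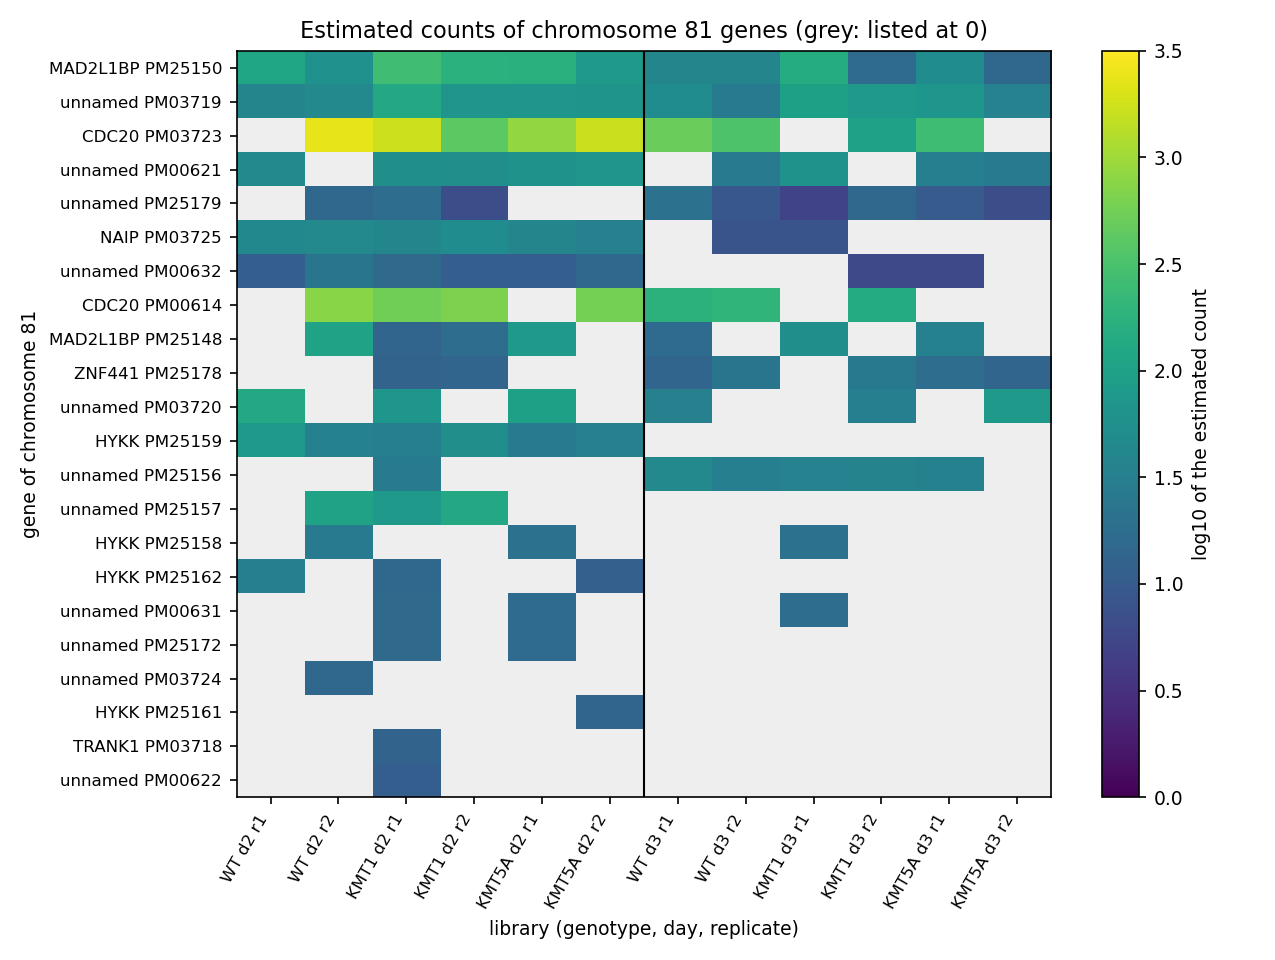
Counts of the 22 genes of chromosome 81 that were above 0 in at least 1 library, in each of the 12 libraries. Most cells are at 0 or under 100 counts, and the 2 CDC20 models hold the largest counts and vary between replicates.

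Among the 40 genes listed at 0 in all libraries, 31 had names. They included 5 models of SPOP, a substrate adaptor of a ubiquitin ligase, 2 of the adhesion molecule CDH2, the Notch ligand JAG1, the Wnt pathway genes WNT7A and RSPO3, the transcription factor MYCN and the survival factor MCL1. Also among them were 2 models of RBM46 and 1 of YTHDC2, RNA-binding proteins that act in meiosis of mouse germ cells. Models with these names outside chromosomes 72 to 85 differed widely. Their summed mean levels were 2183 CPM for CDH2 and 1727 CPM for MYCN. In contrast, the 1 other WNT7A model and 41 of 47 other RBM46 models were also listed at 0 in all libraries. On chromosome 81, 35 of the 42 genes with a symbol, or 83.3%, had a symbol that was also carried by a counted gene outside chromosomes 72 to 85. Over all members this was 319 of 740, or 43.1%, and among the other 13 chromosomes it ranged from 23.1% on chromosome 74 to 61.4% on chromosome 79. How reads that fit several copies were counted is not stated, so a level near 0 of a copy on chromosome 81 cannot be told apart from reads counted at the other copy.

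The summed level of all members was higher at day 3 than at day 2 in every genotype. In wildtype the members summed to 27993 ± 441 CPM (SD, n = 2) at day 2 and 45327 ± 151 CPM at day 3. In KMT1 knockouts the sums were 25935 ± 401 and 44045 ± 631 CPM, and in KMT5A knockouts 25545 ± 292 and 45143 ± 1030 CPM. Relative to chromosomes 1 to 71, the members had 32.1 to 34.1 CPM per 1000 CPM in the 6 day 2 libraries and 43.0 to 46.5 in the 6 day 3 libraries, and these ranges did not overlap. In whole embryos, fewer cells of a type and less RNA per cell cannot be told apart. A summed level is a score over chosen genes and is given without a p-value.

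Levels of cell type markers differed between days as well. The summed level of the germ cell list was 81.2 to 88.9 CPM at day 2 and 69.1 to 78.8 CPM at day 3. In wildtype, mean levels at day 2 and day 3 were 7.11 and 3.42 CPM for the helicase DDX4, 18.8 and 7.10 CPM for PIWIL1, 6.14 and 3.75 CPM for PIWIL2, 44.2 and 24.5 CPM for TDRD9 and 10.5 and 4.68 CPM for MAEL. The regulators PRDM14 and PRDM1 (PM20003) were in the opposite order, PRDM14 listed at 0 at day 2 and at 18.8 CPM at day 3, and PRDM1 at 0.392 and 11.3 CPM. Over the 12 libraries the endoderm list summed to 41.6 to 49.5 CPM at day 2 and 637 to 718 CPM at day 3. In wildtype the FOXA2 models PM10590 and PM15513 were at 7.83 and 503 CPM and at 1.74 and 161 CPM. The other endoderm markers found were lower at day 3 in wildtype. SOX17 was at 6.82 CPM and then listed at 0, FOXA1 at 24.4 and 4.13 CPM and GATA4 at 2.48 and 1.35 CPM. The neural plate list summed to 760 to 880 CPM and 284 to 333 CPM, and the mesoderm and notochord list to 41.4 to 45.8 CPM and 78 to 89 CPM. Not all models followed the sum of their list. In wildtype SOX2 (PM23515) was at 166 and 233 CPM, MYOD1 at 17.3 and 9.18 CPM, and TBX6 at 1.60 CPM and then listed at 0. The part of these cell types in the members' difference between days was not tested.

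The difference was uneven between chromosomes. In wildtype the summed level of chromosome 75 was 850 ± 16.2 CPM at day 2 and 2433 ± 36.4 CPM at day 3, a log2 difference of 1.52. The log2 difference was 0.99 for chromosome 77, 0.82 for chromosome 76 and 0.80 for chromosome 74, the last from 7020 ± 82.4 to 12186 ± 23.6 CPM. Chromosomes 73, 80, 72, 83, 84 and 85 had log2 differences of 0.67, 0.67, 0.66, 0.65, 0.60 and 0.45. Chromosomes 79 and 82 had 0.17 and 0.08, and chromosomes 1 to 71 together had 0.26. The sum of chromosome 78 was lower at day 3, with 1277 ± 7.96 CPM at day 2 and 1154 ± 47.1 CPM at day 3, a log2 difference of -0.15. That of chromosome 81 was -0.24 in wildtype, -1.65 in KMT1 and -1.81 in KMT5A knockouts, with a replicate SD of 1.05 on the log2 scale. Taken relative to chromosomes 1 to 71, the log2 difference in wildtype was 0.43 for all members, 1.25 for chromosome 75, 0.72 for chromosome 77, -0.09 for chromosome 79, -0.18 for chromosome 82 and -0.41 for chromosome 78. With the deposited totals in place of TMM scaling, the difference of all members over the 3 genotypes was 0.33 instead of 0.76 on the log2 scale.

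**Figure D3:**
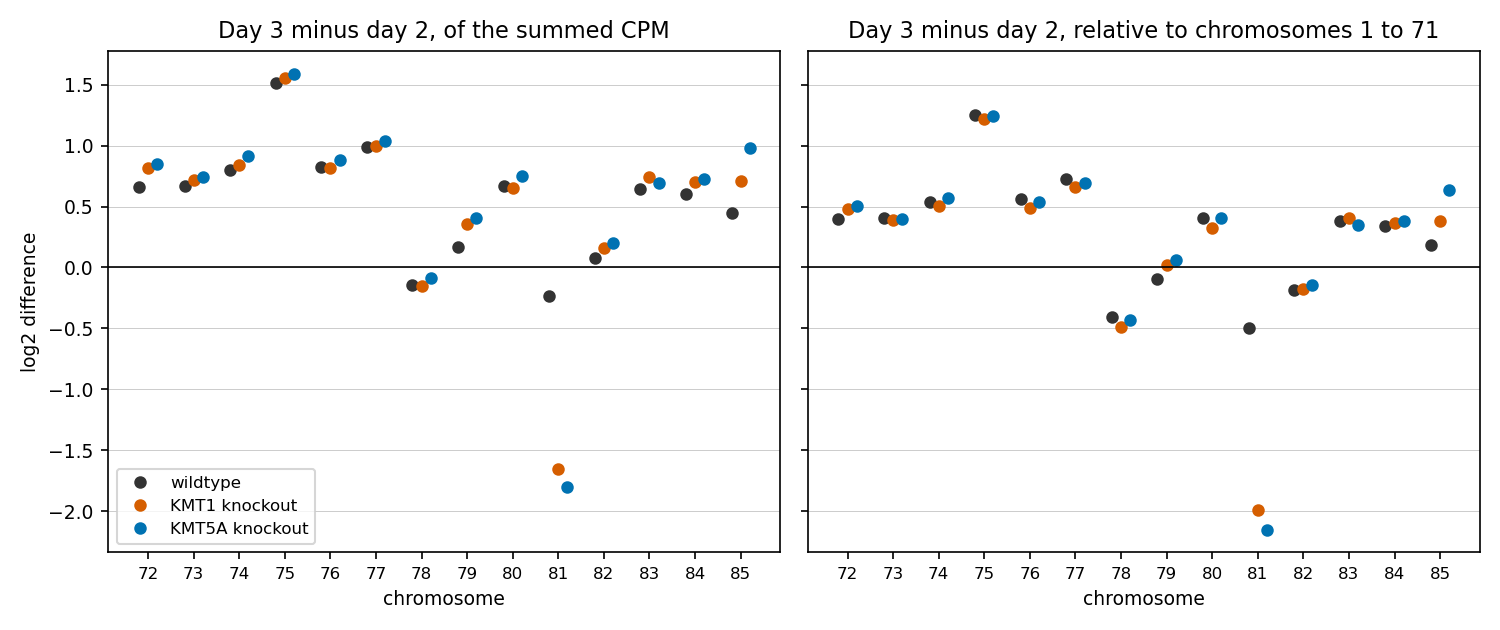
Log2 difference of the summed level of each chromosome between day 3 and day 2, for each of the 3 genotypes. Chromosome 75 has the highest difference. Chromosomes 78 and 81 have negative ones in both panels, and in the right panel so do chromosome 82 and, in wildtype, chromosome 79. The genotypes lie furthest apart on chromosome 81, where few counts were made, and on chromosome 85. On chromosome 79 the left panel has 0.17 in wildtype, 0.35 in KMT1 and 0.41 in KMT5A knockouts.

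A few abundant genes made up much of the difference on several chromosomes. On chromosome 75, 3 models accounted for 82.3% of the wildtype difference of 1583 CPM. They were MRTO4, an assembly factor of the large ribosomal subunit, with a difference of 751 CPM, PM01007 with 415 CPM and GABARAP, a protein of autophagosome membranes, with 136 CPM. MRTO4 (PM01008, positions 329072 to 352403 of unlocalized sequence 1) had 142 and 142 CPM at day 2 and 697 and 1088 CPM at day 3 in wildtype. Its log2 fold change was 2.65 (SE 0.32, adjusted p = 0.000122, edgeR). PM01007 overlaps MRTO4 on the opposite strand, and reads of the 2 cannot be told apart, since the strand setting of the counting is not given in the sources used here. On chromosome 80 CELF2, a regulator of splicing, rose from 114 and 115 CPM to 1063 and 1052 CPM, a log2 fold change of 3.21 (SE 0.06, adjusted p = 1.06e-08, edgeR). On chromosome 73 CCT8, a subunit of the chaperonin that folds actin and tubulin, had a difference of 275 CPM, and on chromosome 85 TAF15, an RNA-binding protein of the FET family, one of 260 CPM.

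Other abundant members fell between days. On chromosome 84 the unnamed model PM08181 lost 645 CPM. PM08181 had 721 and 655 CPM in wildtype at day 2 and 41.8 and 43.5 CPM at day 3. On chromosome 72 CLDN3, a claudin of tight junctions, fell from 3653 and 3721 CPM to 2734 and 2768 CPM in wildtype. On chromosome 78 TDGF1, a co-receptor for Nodal, fell from 515 and 527 CPM to 271 and 288 CPM. On chromosome 82 the unnamed model PM25194 fell from 137 and 133 CPM to 6.60 and 4.10 CPM.

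Genes of cytosolic ribosomal proteins rose together between days. This group was chosen after its values had been seen. It held 10 members, of which 2 were listed at 0 in all libraries and 8 were tested, among them RPL5, RPL7A and RPS18 on chromosome 74, RPL3 and RPL18 on chromosome 72, RPL36A on chromosome 76 and RPL23A on chromosome 77. Their summed level was 1260 ± 16.7 CPM (SD, n = 2) in wildtype at day 2 and 11155 ± 46.9 CPM at day 3. The difference, 9895 CPM, was 57.1% of the difference of all members. All 8 passed edgeR's test between days in each genotype, also without any 1 library. Of all tested genes 29.0%, 28.8% and 29.0% rose in wildtype, KMT1 and KMT5A knockouts. Among the 7 ribosomal protein genes named here, log2 fold changes in wildtype were 2.88 for RPL5 to 3.34 for RPL7A. RPL7A (PM06134, positions 326070 to 337195 of unlocalized sequence 5 of chromosome 74) went from 208 and 209 CPM to 2083 and 2135 CPM in wildtype, a log2 fold change of 3.34 (SE 0.06, adjusted p = 7.72e-09, edgeR). Without these genes, a choice made after seeing the data, the log2 difference of the members' sum over the 3 genotypes was 0.42.

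**Figure D4:**
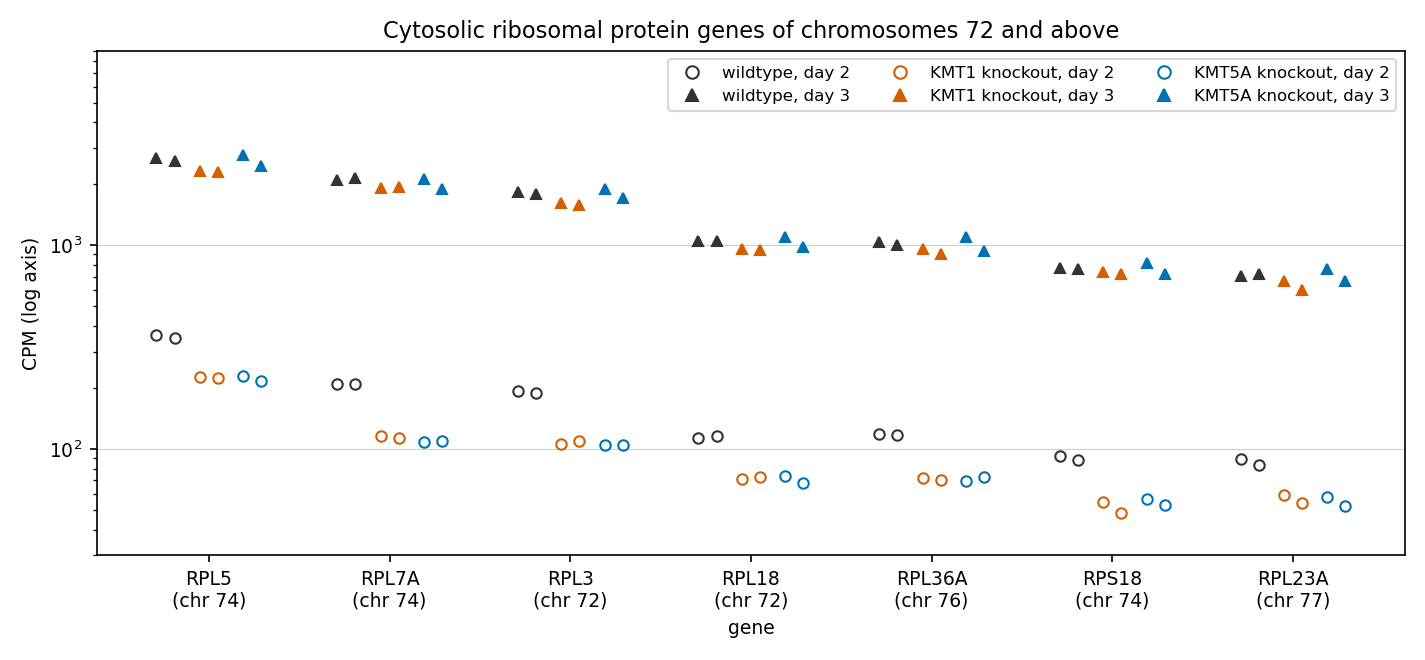
Levels of the 7 cytosolic ribosomal protein genes named in the text in every library, in CPM on a log axis. At day 2 both wildtype pools lie above all 4 knockout pools for each gene, and at day 3 the levels are several times higher in every genotype.

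Gene by gene, 334 tested members rose and 256 fell between day 2 and day 3 in wildtype. That is 31.6% and 24.2% of members, against 29.0% and 37.0% of all 15615 tested genes. In KMT1 knockouts 337 rose and 235 fell, or 31.9% and 22.3%, against 28.8% and 35.6% of all genes. In KMT5A knockouts 341 rose and 240 fell, or 32.3% and 22.7%, against 29.0% and 37.1%. The share of members that rose was near that of all genes and the share that fell lay below it, a difference that was not tested. The median log2 fold change in wildtype was 0 over members and -0.32 over all tested genes. With the deposited library totals alone the median of all genes moved to -0.63, and 44.8%, 43.0% and 40.5% of called members rose in wildtype, KMT1 and KMT5A knockouts, against 56.6%, 58.9% and 58.7% with TMM. Of the 590 members called in wildtype, 56 were listed at 0 in both libraries of a day and have no fold change.

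Chromosomes differed in these shares. In wildtype 45 of 102 tested genes of chromosome 77 rose, or 44.1%, 42.6% on chromosome 72, 41.1% on chromosome 84 and 39.7% on chromosome 75. On chromosome 79 it was 9 of 63 genes, or 14.3%, while 18 fell. On chromosome 74, whose sum was higher at day 3, 42 genes rose and 56 fell, and on chromosome 80 30 rose and 42 fell. On chromosome 81, 1 of the 18 tested genes rose and 1 fell in wildtype, and 0 rose and 1 fell in KMT1 knockouts. In KMT5A knockouts 2 rose and 2 fell there, and leaving out 1 library gave 1 or 2 calls in place of these 4.

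The members with the largest rises in wildtype among those above 0 in all 4 libraries included ADMP and RMND1. ADMP (PM04580, chromosome 74), a BMP-like signal of the dorsal organizer, went from 0.551 and 0.546 CPM to 27.6 and 26.5 CPM, a log2 fold change of 5.62 (SE 1.40, adjusted p = 0.00757, edgeR). RMND1 (PM07141, chromosome 84), a protein of mitochondrial translation, went from 0.584 and 0.377 CPM to 25.4 and 21.9 CPM, also a log2 fold change of 5.62 (SE 0.41). TOMM7, a small subunit of the mitochondrial import pore on chromosome 72, went from 4.29 and 4.23 CPM to 65.1 and 66.6 CPM. PSMC6, an ATPase of the proteasome, and RUVBL2, a helicase of chromatin remodelling complexes, rose by log2 fold changes of 1.15 and 1.55. The call of ADMP was lost without wildtype replicate 1 or 2 of day 2.

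Members that fell between days included CDC45, ZFP92, DYRK4 and GCLC. CDC45 (PM04401, chromosome 72), part of the replicative helicase, fell from 158 and 163 CPM to 18.3 and 22.0 CPM in wildtype, a log2 fold change of -3.00 (SE 0.09, adjusted p = 5.54e-08, edgeR). It fell by 3.14 in KMT1 and by 3.03 in KMT5A knockouts on the log2 scale. ZFP92, a zinc finger gene of chromosome 74, fell from 103 and 103 CPM to 8.68 and 8.04 CPM, a log2 fold change of -3.63 (SE 0.18). DYRK4 (PM24754), a kinase gene of chromosome 73, fell from 11.1 and 10.6 CPM to 0.856 and 1.05 CPM. GCLC, the catalytic subunit of the enzyme that starts glutathione synthesis, fell from 200 and 198 CPM to 35.1 and 36.6 CPM.

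At day 2, in both knockouts, more members were lower than higher against wildtype. In KMT1 knockouts 8 members were higher and 45 lower than in wildtype by edgeR's test, or 0.758% and 4.26%, against 3.18% and 6.79% of all tested genes. In KMT5A knockouts 5 were higher and 42 lower, or 0.473% and 3.98%, against 2.64% and 6.43%. The members' shares lay below those of all genes in both directions, a difference that was not tested. The knockouts share the 2 wildtype libraries, so a likeness between them is not independent. The median log2 fold change was -0.06 over members and -0.02 over all genes for KMT1, and -0.09 and -0.03 for KMT5A. Without any 1 of the 4 libraries the KMT1 count was 20 to 24, and without wildtype replicate 1, wildtype replicate 2 or KMT5A replicate 2 the KMT5A count was 26, 24 or 22. A fit of the compared groups alone gave 33.8% and 28.8% of called members as higher, against 15.1% and 10.6%, and for KMT1 the deposited totals alone gave 13 calls, all lower.

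All 8 tested ribosomal protein genes, a group chosen after its values had been seen, were lower in both knockouts at day 2. Of all tested genes 6.79% were lower in KMT1 and 6.43% in KMT5A knockouts. DESeq2 called all 8 as well, but a second fit of the same libraries cannot make up for that choice. RPL7A had 208 and 209 CPM in wildtype, 115 and 112 CPM in KMT1 knockouts and 108 and 110 CPM in KMT5A knockouts. Its log2 fold changes were -0.87 (SE 0.05, adjusted p = 0.000234, edgeR) and -0.94 (SE 0.05, adjusted p = 0.000178). RPL3 had 191 and 188 CPM in wildtype, 105 and 110 CPM in KMT1 and 105 and 104 CPM in KMT5A knockouts. RPL5 had 363 and 351 CPM in wildtype against 224 and 222 CPM in KMT1 knockouts, with a log2 fold change of -0.68 in both knockouts. RPL18, RPL23A, RPL36A and RPS18 had log2 fold changes of -0.61 to -0.81 for KMT1 and -0.65 to -0.73 for KMT5A. The lowest wildtype pool lay above the highest knockout pool for each of the 8 genes. With the deposited totals alone 7 were called for KMT1 and 8 for KMT5A. At day 3 edgeR called 0 of the 8 in either knockout, with 5 and 0 at an unadjusted p under 0.05 and 2 and 0 called by DESeq2. The medians of their log2 fold changes were then -0.16 and -0.01.

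Other members were lower at day 2 as well. RPF2, a factor of large ribosomal subunit assembly on chromosome 73, had 59.7 and 64.2 CPM, 37.0 and 31.6 CPM, and 41.9 and 44.0 CPM, with log2 fold changes of -0.85 and -0.53. SRSF3, a splicing factor on chromosome 79, had 212 and 226 CPM, 146 and 116 CPM, and 157 and 136 CPM. KIF22, a chromosome-binding kinesin on chromosome 77, was at 11.7 and 13.9 CPM in wildtype and at 6.94 and 6.51 CPM in KMT1 knockouts, a log2 fold change of -0.93 (SE 0.10, adjusted p = 0.0014, edgeR). In KMT5A knockouts KIF22 was at 8.16 and 7.11 CPM. BCL11A, a zinc finger repressor on chromosome 82, was lower in KMT5A knockouts by a log2 fold change of -0.80. It had 25.4 and 21.1 CPM in wildtype, 16.2 and 15.7 CPM in KMT1 and 12.5 and 14.2 CPM in KMT5A knockouts. Outside these chromosomes, 5 counted models carry its symbol. In contrast, HSPA8, a heat shock protein 70 chaperone of chromosome 74, had 40.4 and 42.2 CPM in wildtype, 62.7 and 64.4 CPM in KMT1 and 72 and 68 CPM in KMT5A knockouts. Its log2 fold changes were 0.62 (SE 0.13, adjusted p = 0.0214, edgeR) and 0.76 (SE 0.13, adjusted p = 0.0102). Another counted model named HSPA8, outside these chromosomes, had a mean level of 5500 CPM over all libraries, against 36.4 CPM for this one. Whether the 2 models share reads was not tested. The calls of KIF22 and RPF2 in KMT1 knockouts and of BCL11A in KMT5A knockouts held without any 1 library. Those of HSPA8 in both knockouts and of RPF2 and SRSF3 in KMT5A knockouts were lost without any 1 of the 4 libraries, and that of SRSF3 in KMT1 knockouts without any 1 but KMT1 replicate 1.

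By chromosome, the lower calls were spread over most of the 14. Chromosome 73 had 11 lower genes of 73 tested in KMT1 knockouts, or 15.1%, and 10 in KMT5A knockouts, or 13.7%, with 0 higher in either. Chromosome 74 had 3 higher and 10 lower, and 3 higher and 7 lower. EdgeR made 0 calls in both on chromosome 78, with 0 and 2 genes at an unadjusted p under 0.05 and 0 and 1 called by DESeq2. It made 0 calls on chromosome 81 in each of the 4 comparisons of a knockout with wildtype, with 1 and 1 gene at an unadjusted p under 0.05 at day 2 and 0 and 0 at day 3. DESeq2 called 1 gene there, in KMT5A knockouts at day 3. The sums of the 13 chromosomes other than 81 were lower by 0.04 to 0.17 on the log2 scale in KMT1 knockouts and by 0.08 to 0.19 in KMT5A knockouts, against 0.07 for chromosomes 1 to 71 in both.

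Most of the lower genes of chromosome 73 were neighbours on a single unlocalized sequence, number 2, an observation made after their values had been seen. It holds 13 models, 12 of them without a name, and 7 were lower in KMT1 and 6 in KMT5A knockouts at day 2. The lncRNA models PM04359 and PM04360 lie within PM04358. PM04359 and PM04358 are both among the 7 and cannot be counted as separate. PM04358 (positions 210042 to 353136) had 29.9 and 27.3 CPM in wildtype, 17.3 and 19.2 CPM in KMT1 and 19.2 and 19.0 CPM in KMT5A knockouts, with log2 fold changes of -0.65 (SE 0.09, adjusted p = 0.00419, edgeR) and -0.58 (SE 0.09, adjusted p = 0.00728). PM04361, whose exons total the same 1137 bases, had 24.9 and 22.6 CPM, 15.2 and 17.8 CPM, and 17.8 and 17.3 CPM. Whether these models share reads was not tested. PM04353 and PM04357 were lower as well, by -0.54 and -0.58 in KMT1 knockouts. These calls depended on single libraries and on the scaling. Without 1 library 1 or 2 were called for KMT1 and 0 to 2 for KMT5A, and with the deposited totals alone 0 for both. At day 3 edgeR and DESeq2 called 0 of the 13 in either knockout, with 1 and 0 at an unadjusted p under 0.05. Between day 2 and day 3 in wildtype 11 of the 13 rose, overlapping models included. Of the tested genes of chromosome 73 as a whole 38.4% rose in that comparison, and of all tested genes 29.0%. The other lower genes of the chromosome were RPF2, SAP18, a subunit of a histone deacetylase complex, the elongation and splicing factor HTATSF1 and CCT8.

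**Figure D5:**
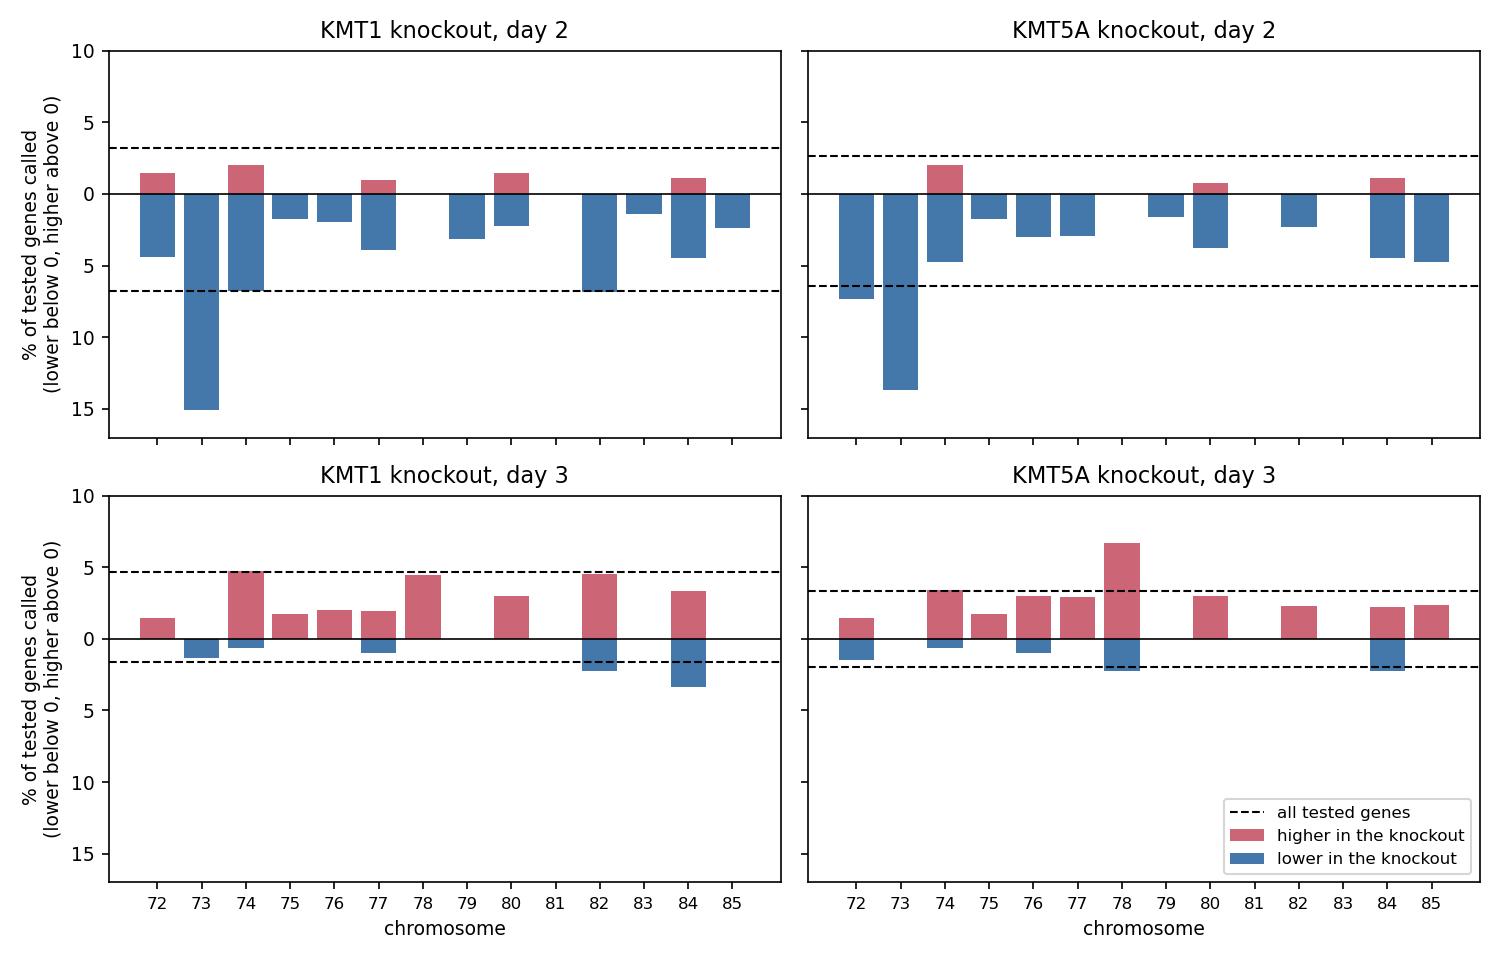
Percent of tested genes called higher and lower in each comparison of a knockout with wildtype, by chromosome, with all tested genes as dashed lines. Chromosomes lie on both sides of the lines. At day 2, lower calls on chromosome 73 were 15.1% for KMT1 and 13.7% for KMT5A, against 6.79% and 6.43% of all tested genes. On chromosome 78 they were 0 in both.

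At day 3 more members were higher than lower in both knockouts. In KMT1 knockouts 24 members were higher and 7 lower than in wildtype, or 2.27% and 0.663%, against 4.67% and 1.59% of all tested genes. In KMT5A knockouts 24 were higher and 6 lower, or 2.27% and 0.568%, against 3.33% and 1.97%. These counts moved with single libraries. For KMT5A, leaving out replicate 2 of the knockout gave 114 calls, 30.7% of them higher instead of 80.0%, and leaving out wildtype replicate 1 gave 16. For KMT1, leaving out replicate 2 of the knockout gave 48. Without the 2 libraries with high counts of the unplaced models the counts were 86 and 49, and a fit of the compared groups alone called 0 in both comparisons, with 112 and 73 members at an unadjusted p under 0.05.

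Several members that were higher at day 3 in knockouts fell from day 2 to day 3 in wildtype. The HSPA8 model of chromosome 74 had 10.2 and 10.3 CPM in wildtype and 17.0 and 22.8 CPM in KMT1 knockouts at day 3. Its log2 fold change was 0.96 (SE 0.13, adjusted p = 0.00597, edgeR). In KMT5A knockouts it had 12.7 and 14.2 CPM at day 3. The limit from the more abundant model of that name holds here too. PM25195, a gene with a reverse transcriptase domain on chromosome 82, had a log2 fold change of 0.97 in KMT1 knockouts, not called without wildtype replicate 2 or KMT1 replicate 1. PRRG4 (PM06607, chromosome 80), a vitamin K-dependent membrane protein, had 17.4 and 17.8 CPM in wildtype, 32.7 and 31.1 CPM in KMT1 and 33.2 and 34.7 CPM in KMT5A knockouts at day 3. Its log2 fold changes were 0.86 (SE 0.07, adjusted p = 0.0008, edgeR) and 0.95 (SE 0.07, adjusted p = 0.0004). At day 2 it had 81.2 and 92.9 CPM in wildtype and 71.5 to 79.8 CPM in the 4 knockout pools. Chromosome 74 holds 4 models named TUBB4B, a beta tubulin, with a summed mean level of 467 CPM over all libraries. Only PM02462 is described here under that name, and whether the 4 models share reads was not tested. TUBB4B (PM02462) had 34.0 and 32.8 CPM in wildtype at day 3. It had 59.5 and 49.6 CPM in KMT1 and 64.0 and 53.0 CPM in KMT5A knockouts. PM08181 had 41.8 and 43.5 CPM, 89.4 and 67.6 CPM, and 78.6 and 71.9 CPM, with log2 fold changes of 0.88 and 0.82. CLDN3 was at 2734 and 2768 CPM in wildtype, at 3445 and 3378 CPM in KMT1 and at 3338 and 3463 CPM in KMT5A knockouts, a log2 fold change of 0.31 (SE 0.04) in both. For PRRG4, TUBB4B, PM08181 and CLDN3 all knockout pools lay above both wildtype pools. Without any 1 library the calls of PRRG4 and CLDN3 held in both knockouts. That of PM08181 in KMT5A knockouts was lost without either wildtype pool or KMT5A replicate 1. Those of TUBB4B were lost without wildtype replicate 2, and for KMT1 also without wildtype replicate 1.

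GCLC was higher by 0.39 and 0.35 on the log2 scale and TDGF1 by 0.16 and 0.25. PSAT1, an enzyme of serine synthesis on chromosome 78, had 8.24 and 7.30 CPM in wildtype and 16.3 and 14.5 CPM in KMT5A knockouts, a log2 fold change of 0.98 (SE 0.19, adjusted p = 0.0267, edgeR). MYBPC3, named for a myosin-binding protein of muscle, had 5.11 and 4.15 CPM in wildtype and 7.62 and 9.45 CPM in KMT5A knockouts, a log2 fold change of 0.88 that was not called without either wildtype pool or KMT5A replicate 2. TRPV1, a cation channel gene on chromosome 77, had 3.54 and 3.29 CPM against 6.65 and 5.41 CPM. In KMT1 knockouts PSAT1 had 15.1 and 9.73 CPM, MYBPC3 6.05 and 6.69 CPM and TRPV1 4.76 and 5.35 CPM. The calls of PSAT1, TRPV1 and GCLC in KMT5A knockouts were lost without wildtype replicate 1, wildtype replicate 2 or KMT5A replicate 1. On chromosome 76, 3 unnamed models at overlapping positions were also higher in KMT5A knockouts. The longest, PM24949 (positions 548751 to 827465), had 6.12 and 5.90 CPM in wildtype, 11.2 and 11.7 CPM in KMT1 and 15.9 and 18.1 CPM in KMT5A knockouts, with log2 fold changes of 0.93 and 1.5 (SE 0.08 each). PM24954 and PM24958 lie within it and had log2 fold changes of 1.15 and 2.25 in KMT5A knockouts, PM24958 also one of 1.67 in KMT1 knockouts, so the 3 cannot be counted as separate. PM24949 overlaps 9 models in all. Of these, PM24957 also lies within it and was not called in KMT5A knockouts at day 3 (log2 fold change 0.31, adjusted p = 0.12, edgeR).

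Members lower at day 3 included EIF3G, CCT6A, POU3F1 and ILK. EIF3G, a subunit of translation initiation factor 3, had 347 and 341 CPM in wildtype and 263 and 282 CPM in KMT1 knockouts, a log2 fold change of -0.34 (SE 0.08, adjusted p = 0.0478, edgeR). CCT6A, another chaperonin subunit, had 105 and 104 CPM against 83.0 and 82.7 CPM. POU3F1, a POU domain transcription factor of the nervous system on chromosome 74, was lower in KMT5A knockouts at both days, with 551 and 584 CPM against 463 and 432 CPM at day 2 and 421 and 413 CPM against 338 and 352 CPM at day 3. ILK, a kinase linked to integrins, had 20.2 and 20 CPM in wildtype and 14.7 and 15.7 CPM in KMT5A knockouts. In KMT1 knockouts ILK had 20.0 and 17.7 CPM at day 3. POU3F1 had 450 and 441 CPM there at day 2 and 370 and 401 CPM at day 3. In KMT5A knockouts EIF3G had 319 and 298 CPM and CCT6A 84.6 and 92.7 CPM at day 3. The calls of EIF3G, CCT6A and ILK were lost without any 1 of the 4 libraries compared, and that of POU3F1 at day 3 without wildtype replicate 1 or KMT5A replicate 1.

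The test of the difference between the day 3 and the day 2 effect called more positive than negative members. For KMT1 42 were positive and 3 negative, or 3.98% and 0.284%, against 7.3% and 2.91% of all tested genes. For KMT5A 50 were positive and 4 negative, or 4.73% and 0.379%, against 6.47% and 3.18%. Of the 8 ribosomal protein genes, 7 were positive for KMT1 and 8 for KMT5A, the exception being RPL23A for KMT1. With the deposited totals alone 4 members were called for each knockout, 3 of them positive for KMT1 and 2 for KMT5A, and 1 ribosomal protein gene in each. Without the libraries with high counts of the unplaced models the KMT1 count was 106 and the KMT5A count 73. Without KMT5A replicate 2 at day 3 the KMT5A count was 107, with 49.5% positive instead of 92.6%. Leaving out 1 of the 4 day 2 libraries brought the KMT1 count down to 21 to 26. The KMT5A count was 23 to 33 without wildtype replicate 1 or 2 at either day or KMT5A replicate 2 at day 2.

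On chromosome 85 a single model set the spread at day 3. PM25246, a gene with a reverse transcriptase domain as found in retrotransposons, had 37.3 and 41.9 CPM in wildtype, 47.0 and 334 CPM in KMT1 and 713 and 45.8 CPM in KMT5A knockouts. The high values were those of the 2 libraries with high counts of the unplaced models, and the part of those models in them was not tested. The summed level of the chromosome was 1065 and 1101 CPM in wildtype, 1042 and 1363 CPM in KMT1 and 1790 and 1113 CPM in KMT5A knockouts, the higher pool of each knockout being 1 of those 2 libraries. In the same 2 libraries other members were low. KMT2A (PM00706, chromosome 82), a methyltransferase of lysine 4 on histone H3, had 8.55 and 3.74 CPM there against 18.5 to 30.6 CPM in the other 4 day 3 libraries, and ZNF462 on chromosome 78 had 79.1 and 47.0 CPM against 130 to 137 CPM.

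The remaining gene groups, defined by symbol, were called mainly between days. Of all tested genes 29.0% rose and 37.0% fell in wildtype, the background of each count between days here. Against wildtype at day 2, 3.18% of all tested genes were higher and 6.79% lower in KMT1 knockouts, and 2.64% and 6.43% in KMT5A knockouts. At day 3 these shares were 4.67% and 1.59%, and 3.33% and 1.97%. No group was tested against these shares. Of 28 zinc finger members 25 were tested, and 9 rose and 3 fell in wildtype from day 2 to day 3. In knockouts 1 was higher and 3 lower at day 2 for KMT1 and 0 and 1 for KMT5A, with 0 calls by edgeR at day 3, where 3 and 2 had an unadjusted p under 0.05 and DESeq2 called 2 and 1. The gene lower in KMT5A knockouts was ZNF507, also lower in KMT1 knockouts, with 11 and 9.20 CPM in wildtype, 6.93 and 7.50 CPM in KMT1 and 6.92 and 6.79 CPM in KMT5A knockouts. Both calls were lost without wildtype replicate 1 or either knockout replicate. Of 23 ubiquitin pathway members 17 were tested, and 7 rose and 3 fell between days in wildtype, RNF185 among the latter from 18.0 and 20.5 CPM to 3.07 and 2.74 CPM. Of 8 kinase and phosphatase members, regulatory subunits included, 6 were tested, with 2 rises and 1 fall. The last was PPP1R11, named for a regulatory subunit of a phosphatase. Of 8 cell cycle members 4 lay on chromosome 81, and CDC45 and CDK5 fell. MADD was among the 8 by its letters alone and is not named for a cell cycle protein. Of 6 chromatin members, all tested, 5 rose between days in wildtype, and 1 of these, a model named BRD2-domain, had the opposite sign with the deposited totals alone. It was also the 1 chromatin member called at day 2, lower in KMT1 knockouts, with 163 and 160 CPM in wildtype against 122 and 125 CPM. Of 4 members matched by letters found in names of transposon-derived genes, all tested, 1 rose between days in wildtype. The letters POL also matched genes named for cellular polymerases, and the 1 that rose was such a gene.

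Members with germline or signalling names gave few values. A list of germline and meiosis symbols matched 7 members, but 5 of these were the SPOP models of chromosome 81, listed at 0, whose name is that of the ubiquitin ligase adaptor and not of a germ cell gene. The list did not hold RBM46 or YTHDC2. RNF17, a Tudor domain protein of germ cells in mice, was at 14.2 to 22.7 CPM over the 12 libraries, and it passed the test only between days in KMT1 knockouts, with a log2 fold change of -0.59 (SE 0.16, adjusted p = 0.0104, edgeR). The difference of that change from the wildtype change did not pass the test. Of 11 members matched by symbols of Wnt and other signals, 5 were listed at 0, all of them on chromosome 81. These were WNT7A, JAG1 and models of gap junction genes, which the list also took in. The other 6 were tested. None of the 6 had a Wnt name, and they were named for FGF, ephrin and TGF-beta receptors. EdgeR made 0 calls among the 6, with 0 at an unadjusted p under 0.05, in the wildtype day comparison and in the 4 comparisons of knockout with wildtype. DESeq2 called 1 of them, in KMT5A knockouts at day 3. Between days in KMT5A knockouts edgeR called 1 as lower and DESeq2 called 2. The former was EPHA10, an ephrin receptor, with 1.90 and 3.09 CPM at day 2 and listed at 0 in both pools at day 3. Both adhesion members were the CDH2 models of chromosome 81, listed at 0.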

How the data were processed

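The authors deposited a table with 1 whole-number value for each gene in each library, described in the labels as raw, and an annotation. The submitters' processing notes name HISAT2 2.2.1, StringTie 2.2.3 and DESeq2 1.42.1, without role or order. The deposited values were treated as estimated counts, since genes at 0 in 1 replicate often had many counts in the other. They were already whole. The assembly, strand setting and handling of reads with several positions are not given in the sources used here. Coordinates are those of the deposited annotation, per the file headers, with no assembly named. The table held 0 unused sample columns.

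Tests were made with edgeR 4.0.16 (R 4.3.3): a quasi-likelihood F test over all 6 groups, TMM scaling, the default filter on low counts (15615 of 22407 genes), 9 comparisons and Benjamini-Hochberg adjustment over all tested genes. A gene was called when its adjusted p was below 0.05. The fit had 6 residual degrees of freedom and was tested on simulated data. Total counts were 61886305 to 89061394 per library. DESeq2 1.42.0 was an alternative, and figures used Python 3.11.15, pandas 2.3.3 and matplotlib 3.10.9. Other alternatives were other scalings and filters, the compared groups alone, a replicate block and leaving out each library. Exact permutation tests of summed levels had been planned, but summed levels are given without a p-value because the members were chosen with results known.

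Members and gene groups were chosen with earlier results of these data known. Genes are named by rule: the 3 most abundant of each chromosome, up to 5 called members of each sign per comparison (3 for a difference between days) with a symbol, a mean of 50 or more counts in the group with more, no library at 0 and groups that do not overlap, and the gene groups. Members that drove a chromosome's difference, the genes of chromosome 81 and the neighbours on chromosomes 73 and 76 were chosen after their values were seen. Some genes that these rules name are not reported here.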

Additional observations from a re-analysis of the deposited data

Results flagged for a closer look

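By edgeR's test of the day 3 effect against the day 2 effect, the response to the knockout was unequal on the 2 days for 45 members in KMT1 and 54 members in KMT5A knockouts. For KMT1, 3.98% of tested members were positive and 0.284% negative, against 7.3% and 2.91% of all tested genes. For KMT5A the shares were 4.73% and 0.379%, against 6.47% and 3.18%. The members' shares lay below those of all genes, a difference that was not tested. Among the members named by rule, PRRG4 had a difference of 1.12 on the log2 scale for KMT1 (SE 0.10, adjusted p = 0.00104, edgeR) and had 1.08 for KMT5A (SE 0.10, adjusted p = 0.00121). VKORC1L1, a vitamin K reductase gene of chromosome 84, had 1.05 for KMT1 (adjusted p = 0.0236, edgeR), with 15.5 and 16.1 CPM in wildtype against 13.1 and 9.5 CPM at day 2, and 18.4 and 20.3 CPM against 26.8 and 30.3 CPM at day 3. PGRMC2, a heme-binding membrane protein gene of chromosome 76, had 1.01 for KMT1 (adjusted p = 0.00788, edgeR), with 8.41 and 8.67 CPM against 5.38 and 5.33 CPM at day 2, and 11.1 and 9.78 CPM against 13.5 and 12.8 CPM at day 3. In KMT5A knockouts VKORC1L1 had 12.9 and 12.6 CPM at day 2 and 30.7 and 27.0 CPM at day 3. PGRMC2 had 5.56 and 5.59 CPM there and then 13.5 and 14.5 CPM. MYBPC3 and PSAT1 had differences of 1.10 each for KMT5A (adjusted p = 0.0378 and 0.0416, edgeR).

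The model named UBAC1-domain on chromosome 74 went the other way, with -0.81 for KMT1 (adjusted p = 0.0216, edgeR) and -0.70 for KMT5A (adjusted p = 0.0384). It had 26.9 and 28.4 CPM in wildtype against 40.6 and 43.4 CPM in KMT1 and 38.4 and 38.5 CPM in KMT5A knockouts at day 2. At day 3 it had 35.5 and 33.5 CPM in wildtype, 31.6 and 28.3 CPM in KMT1 and 26.0 and 33.1 CPM in KMT5A knockouts. Without any 1 library the calls of PRRG4 and PGRMC2 held. That of PSAT1 was lost without any 1 of the 8 libraries, those of UBAC1-domain in 7 of the 8 such fits. Those of VKORC1L1 for KMT1 and of MYBPC3 were lost without any 1 of the wildtype pools of day 2 and day 3, and also without replicate 2 of the knockout at day 2. The causes of these differences were not tested.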

How the results depend on the processing

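Counts of called members in the order KMT1 at day 2, KMT5A at day 2, KMT1 at day 3, KMT5A at day 3, KMT1 difference between days and KMT5A difference between days were 53, 47, 31, 30, 45 and 54. With the deposited totals alone they were 13, 12, 9, 8, 4 and 4, and with DESeq2 89, 94, 119, 115, 114 and 125. Leaving out 1 library gave 20 to 24, 22 to 35, 22 to 48, 16 to 114, 21 to 57 and 23 to 107. The compared groups alone gave 0 and 0 calls at day 3. Without both libraries with high counts of the unplaced models, a choice made after seeing the data, day 3 counts were 86 and 49 and the differences 106 and 73, and 24 calls of named genes were lost. The 3 counts between days stayed within 1.5 times of 590, 572 and 581 under the alternatives tried. The replicate numbers did not pair the libraries (correlations of -0.09 to 0.06 over 15 pairs of groups). With a replicate block the 9 counts were 42, 41, 29, 22, 572, 548, 564, 42 and 46. Differences of summed levels cannot move under such a block, since each group holds a library of each replicate number.

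The log2 difference of the members' summed level between days was 0.76. It was 0.33 with the deposited totals alone, 0.65 without the most abundant member of each chromosome, 0.82 without members whose symbol is carried elsewhere, 0.61 without unlocalized sequences and 0.0879 as the mean of log2(CPM + 1). Added after seeing the data, it was 0.45 relative to chromosomes 1 to 71 and 0.42 without ribosomal protein genes. The difference of -0.08 for KMT1 was -0.0454 relative to chromosomes 1 to 71, -0.0455 without ribosomal protein genes and -0.0243 as mean log2. That of -0.07 for KMT5A was -0.12 with the deposited totals alone, -0.0415 with DESeq2 size factors, -0.0449 relative to chromosomes 1 to 71, -0.0466 without unlocalized sequences and -0.0381 as mean log2.

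With the deposited totals alone 7 values of named genes changed sign on the log2 scale, from day 2 to day 3: in KMT5A knockouts CYTH1 (-0.047), ZP3 PM02677 (-0.36), ZNF326 (-0.10), BRD2-domain (-0.11) and APP (-0.41), and in wildtype PGRMC2 (-0.018) and BRD2-domain (-0.0471). Beyond the scaling or sample number each setting itself changes, the cause of these shifts was not tested. Of the other values of named genes over all alternatives, 4648 kept their call and 785 lost it, 151 of these with the deposited totals alone and 65 with the compared groups alone.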

Other observations

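On 2 of these chromosomes the same pair of neighbours occurs, a gene named KDM2A, a demethylase of histone H3, followed by a gene named FBXL19, an F-box protein of the same family. On unlocalized sequence 13 of chromosome 77, KDM2A had 24.4 and 23.9 CPM at day 2 and 71.5 and 63.3 CPM at day 3 in wildtype, and FBXL19 had 6.24 and 6.90 CPM and then 16.4 and 15.7 CPM. On unlocalized sequence 4 of chromosome 84, KDM2A had 15.8 and 15.6 CPM and then 82.4 and 76.1 CPM, and FBXL19 had 15 and 14.5 CPM and then 72.6 and 84.1 CPM. All 4 genes rose between days in wildtype by edgeR's test, with log2 fold changes of 1.48 and 1.29 on chromosome 77 and of 2.33 and 2.41 on chromosome 84. In KMT5A knockout replicate 1 at day 3, a library with high counts of the unplaced models, the 4 levels were 32.6, 6.87, 44.6 and 49.0 CPM, each the lowest of the 6 day 3 libraries. Whether the 2 pairs share reads was not tested.

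Among 9 members with a reverse transcriptase domain, a group chosen after its values were seen, 8 were tested, and 5 rose and 1 fell between days in wildtype, where 29.0% of all tested genes rose and 37.0% fell. Neighbouring models on unlocalized sequence 7 of chromosome 77 rose together: PM07471 had 1.46 and 0.705 CPM at day 2 and 27.4 and 33.3 CPM at day 3, and PM07470 had 0.705 and 0.914 CPM and then 19.1 and 20.8 CPM. At day 3, PM07471 had 24 and 13.6 CPM in KMT1 knockouts and 3.81 and 31.3 CPM in KMT5A knockouts, the low values again in the 2 libraries with high counts of those models. PM25195 on chromosome 82 was the one that fell, from 54.9 and 52.1 CPM to 4.79 and 3.94 CPM, a log2 fold change of -3.61 (SE 0.18).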
